A study of Mus musculus with 12 samples.

Results

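The 8 genes described here encode dual specificity phosphatases: Dusp1, Dusp2, Dusp4, Dusp5, Dusp6, Dusp7, Dusp10 and Dusp16. They were grouped as phosphatases of the MAP kinases and selected on the signal of Dusp10, which was known to be higher in Ebi3 –/– than in wild-type arrays within batches. All probe sets annotated to these genes alone were used, which gave 12 of the 45101 probe sets on the array: 1 each for Dusp1, Dusp2, Dusp4, Dusp5 and Dusp6, 3 for Dusp7, and 2 each for Dusp10 and Dusp16. All 12 passed the filter on low signal, as did 31235 probe sets in all; it asks for 3 or more arrays on which the signal is at or above that array's 40th percentile. Because the choice rested on Ebi3 –/– against wild type, that difference is given as a description with no test.

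The series holds 12 Affymetrix mouse expression arrays, made from RNA of natural regulatory T cells (Tregs), the T cells that hold other immune cells in check. The cells were sorted by flow cytometry and used fresh, with no treatment. There were 4 genotypes with 3 arrays each: wild type, Ebi3 –/– (no Ebi3, the subunit that IL-27 and IL-35 have in common), Il10 –/– (no IL-10), and Ebi3 –/– Il10 –/–, called the double knockout here. Each of the 3 labelled batches held 1 array of every genotype, and the replicate number of an array was its batch. The labels give no strain, age, sex or targeted allele and do not say whether replicates came from separate mice or pools, so p-values measure only the spread between these samples.

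MAP kinases (ERK, JNK and p38) carry signals from the T cell receptor and from stress to the nucleus, and are switched on when a kinase phosphorylates a threonine and a tyrosine in their activation loop. A dual specificity phosphatase removes both phosphates and so ends the signal. Many of these phosphatase genes are themselves switched on by the pathway they restrain, which makes their RNA a feedback product of recent MAP kinase activity. Dusp1, Dusp2, Dusp4 and Dusp5 encode inducible nuclear enzymes, Dusp6 and Dusp7 cytoplasmic enzymes that act on ERK, and Dusp10 and Dusp16 enzymes that act mainly on JNK and p38.

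The stretches of 250 bases before the start sites of Dusp1, Dusp5 and Dusp10 are shown because Dusp1 was lowest on the wild-type array of batch 1, while Dusp5 and Dusp10 had all arrays of batch 2 above the others. They are RefSeq sequences of GRCm38.p6, from chr17:26508473-26508722 (minus strand), chr19:53528895-53529144 (plus strand) and chr1:184034131-184034380 (plus strand), and capitals mark motif matches.
Dusp1: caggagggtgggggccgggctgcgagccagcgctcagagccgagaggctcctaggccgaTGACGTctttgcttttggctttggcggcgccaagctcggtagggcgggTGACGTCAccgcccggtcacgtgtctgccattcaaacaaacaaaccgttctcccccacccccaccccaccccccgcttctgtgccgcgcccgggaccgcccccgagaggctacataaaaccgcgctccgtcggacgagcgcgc
Dusp5: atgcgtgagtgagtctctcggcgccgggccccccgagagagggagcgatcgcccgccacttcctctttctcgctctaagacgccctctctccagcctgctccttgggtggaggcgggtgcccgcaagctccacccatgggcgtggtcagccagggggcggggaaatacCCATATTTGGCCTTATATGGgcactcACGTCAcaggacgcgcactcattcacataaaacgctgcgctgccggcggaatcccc
Dusp10: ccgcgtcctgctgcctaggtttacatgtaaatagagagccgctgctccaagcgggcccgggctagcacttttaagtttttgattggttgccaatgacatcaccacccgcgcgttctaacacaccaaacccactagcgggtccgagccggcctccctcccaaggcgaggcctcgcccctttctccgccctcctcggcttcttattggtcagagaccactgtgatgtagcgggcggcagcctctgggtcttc
Of the 8 genes, 7 were matched in the promoter table, all but Dusp4, and both strands were searched. The cAMP response element TGACGTCA, bound by CREB and ATF factors, was found upstream of Dusp1 from -143 to -136, and in 1.55% of 32851 promoter stretches of this length. Its shorter form TGACGT, which lies within the full element and so overlaps it, was also found in Dusp1 from -191 to -186 and in Dusp5 from -56 to -51, and in 6.47% of the stretches. Dusp5 held CArG boxes, the motif of serum response factor, from -82 to -73 and from -72 to -63, against 1.47% of the stretches with at least 1. The AP-1 site TGANTCA, present in 6.75%, and the EGR site GCGTGGGCG, present in 0.536%, matched none of the 7 genes. Dusp2, Dusp6, Dusp7, Dusp10 and Dusp16 held none of the motifs searched. Dusp2 and Dusp6, not shown here, were like Dusp1 lowest of the 12 arrays on the wild-type array of batch 1. These matches describe letters in this window.

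Signals are MAS5 values, scaled to the same trimmed mean on each array, and differences are in log2(signal + 20). The Treg marker Foxp3 lay between 4945.3 and 7955.0 on all 12 arrays. Ebi3 was at 3.0 to 72.5 in the 6 arrays that lack it by label and at 1062.5 to 2057.3 in the others. The Il10 probe set read 1016.7 to 2639.6 in the 6 arrays labelled as lacking Il10; the deleted part of the gene is not given, so this probe set does not check those labels, and the Il10 genotypes below are those of the labels alone. The arrays of batch 3 and the wild-type array of batch 1 stood apart. Myeloid markers summed to signals of 22161 to 40106 in batch 3 against 2274 to 4442 in the 8 other arrays, and neutrophil markers to 4809 to 15111 against 1149 to 4416. Treg markers summed to 35756 to 42782 in batch 3 against 52930 to 58511 in the others. In the wild-type array of batch 1, the immediate-early genes, which respond within minutes to T cell receptor signals or to handling, summed to 59184, against 85315 to 175146 on the other 11 arrays.

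Dusp1 (probe set 1448830_at, chromosome 17) encodes an inducible nuclear phosphatase of p38, JNK and ERK. Its signal in wild type was 5743.4, 27685.9 and 24498.2 in batches 1, 2 and 3. It was 29768.6, 32388.6 and 22210.3 in Ebi3 –/–, 30079.4, 32379.6 and 23821.0 in Il10 –/–, and 28234.0, 28616.3 and 25432.0 in the double knockout. The other 11 arrays thus stayed within 22210.3 to 32388.6, and the wild-type array of batch 1 alone lay below that range.

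Dusp2 (1450698_at, chromosome 2), a nuclear phosphatase abundant in activated immune cells, read 2936.1, 6454.1 and 5066.2 in wild type and 7479.0, 8387.4 and 4481.9 in Ebi3 –/–. In Il10 –/– it read 7223.5, 4799.1 and 4610.4, and in the double knockout 6932.2, 4548.4 and 4343.6. The wild-type array of batch 1 was again the lowest of the 12, the 4 arrays of batch 3 lay close together, and the genotypes overlapped.

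Dusp4 (1428834_at, chromosome 8), a nuclear ERK and JNK phosphatase, read 2172.4, 4389.6 and 2336.6 in wild type and 7177.4, 3877.6 and 1836.9 in Ebi3 –/–. The values were 5877.5, 3836.8 and 1708.9 in Il10 –/– and 7676.6, 4117.4 and 1245.1 in the double knockout. In each of the 3 knockout genotypes batch 1 was the highest and batch 3 the lowest, while in wild type batch 1 was the lowest.

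Dusp5 (1437199_at, chromosome 19), a nuclear phosphatase that acts on ERK alone, read 1157.7, 6120.8 and 1300.6 in wild type and 4471.2, 10471.0 and 1473.9 in Ebi3 –/–. It read 3656.1, 4572.1 and 1342.1 in Il10 –/– and 4265.7, 5156.4 and 1006.4 in the double knockout. All 4 arrays of batch 2 were above all 8 others, and the Ebi3 –/– array was the highest of its batch in all 3 batches.

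**Figure D1:**
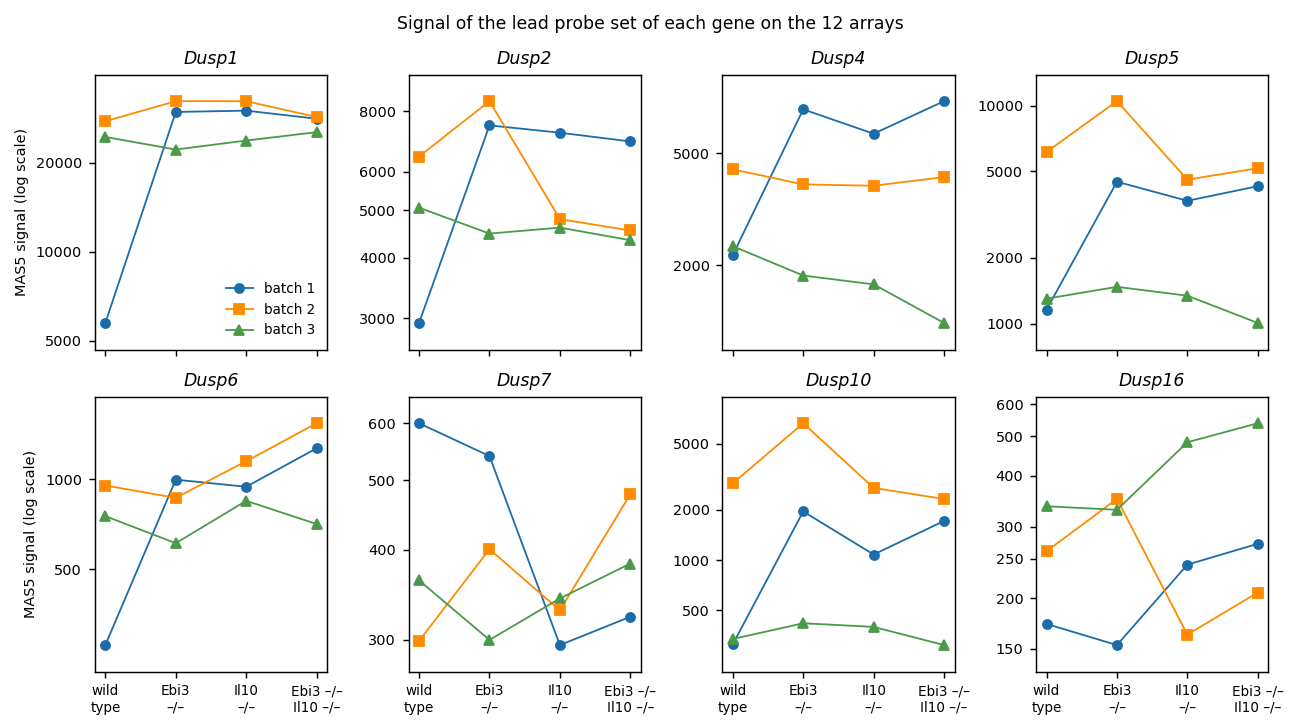
MAS5 signal (log axis) of the lead probe set, the one with the highest mean over the 12 arrays, of each of the 8 genes; each point is 1 array, genotypes are along the x axis, and lines join the 4 arrays of a batch. For Dusp1, Dusp2 and Dusp6 the wild-type array of batch 1 is the lowest of the 12, and for Dusp5 and Dusp10 the 4 arrays of batch 2 lie above all others.

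Dusp6 (1415834_at, chromosome 10), the cytoplasmic ERK phosphatase and a common readout of ERK activity, read 279.7, 952.1 and 752.7 in wild type and 995.8, 866.2 and 611.4 in Ebi3 –/–. It read 943.1, 1147.0 and 846.5 in Il10 –/– and 1266.9, 1535.7 and 708.5 in the double knockout. The wild-type array of batch 1 was the lowest and the double knockout array of batch 2 the highest, and all 4 genotypes overlapped.

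Dusp7, a cytoplasmic ERK phosphatase related to Dusp6, lies on chromosome 9. Its lead probe set 1452097_a_at read 600.1, 298.7 and 362.7 in wild type and 540.2, 400.8 and 299.7 in Ebi3 –/–. It read 294.8, 329.5 and 342.3 in Il10 –/– and 322.8, 478.1 and 382.8 in the double knockout. Here the wild-type array of batch 1 was the highest of the 12 and not the lowest. The probe set 1427416_x_at ranged from 246.6 to 536.4 and 1460393_a_at from 69.3 to 181.7.

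Dusp10 (chromosome 1) encodes a phosphatase of JNK and p38 whose loss in mice is known to alter T cell cytokine production. Its lead probe set 1417164_at read 313.5, 2886.6 and 337.0 in wild type and 1958.9, 6618.1 and 418.7 in Ebi3 –/–. It read 1081.2, 2711.8 and 398.2 in Il10 –/– and 1717.8, 2326.0 and 309.9 in the double knockout. Batch 2 was above all other arrays, and the 4 arrays of batch 3 and the wild-type array of batch 1 lay between 309.9 and 418.7.

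The second probe set of Dusp10, 1417163_at, read 68.4, 102.1 and 5.6 in wild type and 202.8, 247.4 and 30.3 in Ebi3 –/–. It read 136.0, 150.7 and 12.9 in Il10 –/– and 275.6, 232.5 and 35.8 in the double knockout. Within each batch the order of the genotypes began with wild type, then Il10 –/–, with Ebi3 –/– and the double knockout above both. The 4 values of batch 3 were below the 40th percentile of their arrays, so the differences in that batch are between dim signals.

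Dusp16 (chromosome 6), a JNK and p38 phosphatase with nuclear and cytoplasmic forms, read 172.7, 260.8 and 336.6 in wild type on its lead probe set 1418401_a_at. The values were 153.2, 350.8 and 329.9 in Ebi3 –/–, 241.7, 162.5 and 484.0 in Il10 –/– and 272.1, 206.4 and 539.0 in the double knockout. Its second probe set 1440615_at read 25.0, 99.5 and 28.6 in wild type, 134.7, 72.7 and 10.5 in Ebi3 –/–, 56.9, 87.8 and 9.1 in Il10 –/–, and 138.5, 115.3 and 15.7 in the double knockout. The pair went opposite ways in batch 3: the lead probe set was at its highest there in 3 of the 4 genotypes, while the second was under 30 on all 4 arrays.

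**Figure D2:**
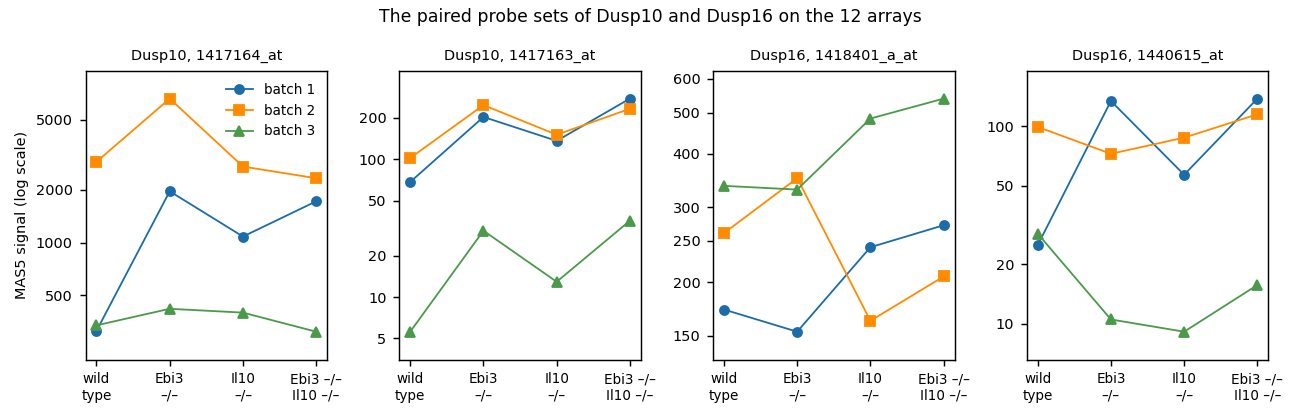
MAS5 signal (log axis) on the 12 arrays of the pairs of probe sets of Dusp10 and of Dusp16; each point is 1 array and lines join the arrays of a batch. The Dusp10 probe set 1417163_at has Ebi3 –/– and the double knockout above wild type and Il10 –/– in each batch, with batch 3 between 5.6 and 35.8, and the Dusp16 pair takes opposite directions in batch 3.

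For Ebi3 –/– against wild type, the comparison behind the choice of genes, Dusp10 differed by 2.57, 1.19 and 0.30 in batches 1, 2 and 3 on the lead probe set and by 1.33, 1.13 and 0.97 on the second. Dusp5 differed by 1.93, 0.77 and 0.18. A difference above 0 in all 3 batches was found for 11.1% of all tested probe sets. Dusp1 differed by 2.37, 0.23 and -0.14, Dusp2 by 1.34, 0.38 and -0.18, Dusp4 by 1.71, -0.18 and -0.34 and Dusp6 by 1.76, -0.13 and -0.29. In these 4 genes the difference was largest in batch 1 and below 0 in batch 3. Without the wild-type array of batch 1, and with batch in the model, the mean difference of Dusp10 was 0.68 on the lead probe set, against 1.35 with that array, and 1.00 against 1.15 on the second. Some of the other lists lay mostly to one side of 0 in this comparison, given like the members as a description with no test. Others were split, with 4 of 9 other dual specificity phosphatases, 4 of 8 MAP kinases and 3 of 6 MAP2 kinases above 0. Treg markers were above 0 for 4 of 7 and myeloid markers for 3 of 5. Neutrophil markers summed to 1149, 1218 and 4809 in Ebi3 –/– against 4416, 2654 and 13376 in wild type, with all 6 below 0 and a median difference of -1.27. B cell markers were below 0 for 5 of 5 (median -0.40), and the CD8 T and NK list for 6 of 6 (median -0.30). Immediate-early genes were above 0 for 19 of 20 with a median of 0.65, and heat shock and handling stress genes for 9 of 10 with a median of 0.23. Leaving out the wild-type array of batch 1, with batch in the model, gave 17 of 20 (median 0.15) and 5 of 10 (-0.07). For the neutrophil, B cell, and CD8 T and NK lists it gave 1 of 6, 0 of 5 and 1 of 6 above 0. Their medians were then -1.05, -0.74 and -0.32. The part of any of these lists in the Dusp10 difference was not tested.

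The double knockout against Il10 –/– sets arrays with and without Ebi3 side by side in a background that lacks Il10 by label, and shares no array with Ebi3 –/– against wild type. By limma with no batch term, Benjamini-Hochberg adjustment over all 31235 probe sets and a threshold of 0.05, 0 of the 12 probe sets passed. Of all tested probe sets 0.00320% did, and 0 of the 12 had an unadjusted p under 0.05 in this fit. The 12 differences ran from -0.07 to 0.75 with a median of 0.07, against 0.007 over all tested probe sets. Dusp10 was split between its probe sets. The second, 1417163_at, was higher in the double knockout in 3 of 3 batches, by 0.92, 0.56 and 0.76, with a mean of 0.75 ± 0.885 (SE, n = 3, limma adjusted p = 1.0). Its SE was 0.252 with batch in the model, where the limma p before adjustment was 0.0106, and it was not called after adjustment. A higher value in all 3 batches was found for 13.8% of the tested probe sets. The lead probe set 1417164_at differed by 0.66, -0.22 and -0.34, with a mean of 0.03 ± 1.11 (SE, n = 3, limma adjusted p = 1.0). Without the Il10 –/– array of batch 3 the mean of 1417163_at was -0.02 in the fit with no batch term, where the double knockout still holds its dim batch 3 array, and 0.71 with batch in the model.

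Il10 –/– against wild type and the double knockout against wild type share the wild-type arrays with each other and with Ebi3 –/– against wild type. In the first, limma called 0 of the 12 probe sets, where 0.00640% of all tested were called. In the second it called 0 of 12, where 0.00960% were. In this fit with no batch term, 0 had an unadjusted p under 0.05 in either. With batch in the model 2 probe sets had a limma p before adjustment under 0.05 in each, and 0 were called. The differences of Dusp1 were 2.38, 0.23 and -0.04 for Il10 –/– in batches 1, 2 and 3, and 2.29, 0.05 and 0.05 for the double knockout. Those of Dusp6 were 1.68, 0.26 and 0.17 for Il10 –/– and 2.10, 0.68 and -0.08 for the double knockout. In both genes the difference of batch 1 was the largest by far, and batch 1 is where the wild-type array read 5743.4 for Dusp1 and 279.7 for Dusp6. Dusp1 had a mean difference of 0.86 ± 0.446 for Il10 –/– and 0.80 ± 0.446 for the double knockout (SE, n = 3, limma adjusted p = 1.0 for both), and without the wild-type array of batch 1 these were 0.13 and 0.07.

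Dusp2, Dusp4 and Dusp5 were likewise above wild type in batch 1 of these comparisons. Their differences there were 1.29, 1.43 and 1.64 for Il10 –/– and 1.23, 1.81 and 1.86 for the double knockout. In batches 2 and 3 they lay between -0.45 and 0.04 for Il10 –/– and between -0.90 and -0.09 for the double knockout. The Dusp7 lead probe set differed by -0.98, 0.13 and -0.08 for Il10 –/– and by -0.86, 0.64 and 0.07 for the double knockout, so its batch 1 value had the opposite sign. Dusp16 had no common direction over batches on either probe set in the double knockout, with 0.60, -0.31 and 0.65 on the lead and 1.82, 0.18 and -0.45 on the second.

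Dusp10 differed from wild type by 1.72, -0.09 and 0.23 in Il10 –/– and by 2.38, -0.31 and -0.11 in the double knockout on its lead probe set. Its second probe set 1417163_at was higher than wild type in 3 of 3 batches in both: by 0.82, 0.48 and 0.36 in Il10 –/– and by 1.74, 1.05 and 1.12 in the double knockout. That direction in all 3 batches was found for 12.5% and 13.9% of the tested probe sets. The mean for the double knockout was 1.30 ± 0.885 (SE, n = 3, limma adjusted p = 1.0). With the batch in the model its SE was 0.252 and the limma p before adjustment 0.000165. The adjusted p was then 0.11, the smallest of the 12. The 2 probe sets of Dusp10 are both annotated to the same RefSeq transcript, and they parted in batches 2 and 3 in this comparison.

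**Figure D3:**
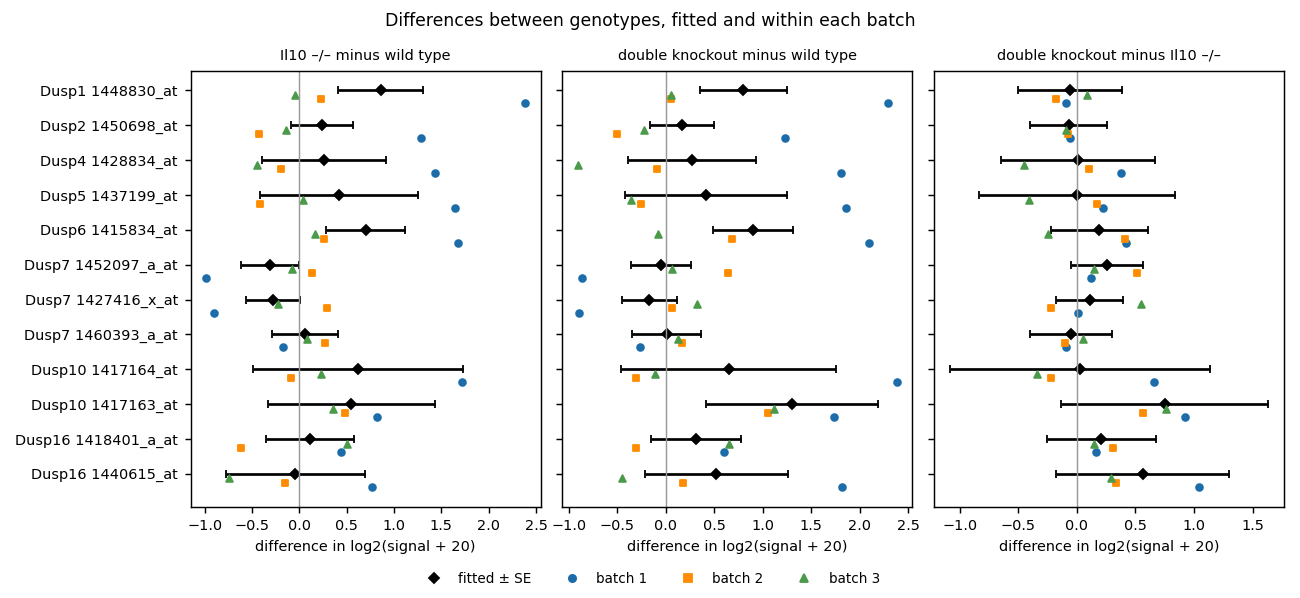
Differences in log2(signal + 20) for the 12 probe sets in Il10 –/– against wild type, the double knockout against wild type, and the double knockout against Il10 –/–; black diamonds are limma means over 3 arrays a group with their SE, and coloured points the difference within each batch. In both comparisons with wild type the batch 1 points of Dusp1, Dusp2, Dusp4, Dusp5, Dusp6 and the Dusp10 lead probe set lie above 1.2, and those of the other batches between -0.90 and 0.68.

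Against Ebi3 –/–, limma called 0 of the 12 probe sets in the double knockout (0.00640% of all tested were called) and 0 of 12 in Il10 –/– (0.00960%), with 0 at an unadjusted p under 0.05 in each. These comparisons share the Ebi3 –/– arrays with the one used to choose the genes. Dusp5 was lower than in Ebi3 –/– in 3 of 3 batches in both, with differences of -0.07, -1.02 and -0.54 in the double knockout and of -0.29, -1.19 and -0.13 in Il10 –/–. The Dusp10 lead probe set was also lower, with differences of -0.19, -1.50 and -0.41 in the double knockout and of -0.85, -1.28 and -0.07 in Il10 –/–. The second Dusp10 probe set was lower in Il10 –/–, with differences of -0.51, -0.65 and -0.61, and differed by 0.41, -0.08 and 0.15 in the double knockout. A lower value in all 3 batches was found for 10.6% of tested probe sets in the double knockout and 12.5% in Il10 –/–. For both Il10-deficient genotypes averaged against both others, 0 of 12 were called (0.0128% of all tested), 0 had an unadjusted p under 0.05, and the differences ran from -0.18 to 0.58. With batch in the model limma again called 0 of the 12 probe sets in each of these comparisons. The limma p before adjustment was then under 0.05 for 1 probe set in Il10 –/– against Ebi3 –/– and 1 in the average. It was so for 0 in the double knockout against Ebi3 –/–. All tested probe sets were then called at 0.0384% in Il10 –/– and 0.0416% in the double knockout against wild type, 0.0192% in either against Ebi3 –/–, 0.00320% in the double knockout against Il10 –/– and 0.0640% in the average.

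The wild-type array of batch 1 was the lowest of the 12 arrays for Dusp1, Dusp2 and Dusp6, 3 of the 12 probe sets, where 7.00% of all tested probe sets had their lowest value there. It was the lowest of its batch for 8 of the 12 probe sets, in 7 genes, where 31.3% of all tested probe sets were. The exceptions were the 3 Dusp7 probe sets and the Dusp16 lead. Heat shock and handling stress genes summed to 62114 on this array against 90658 to 178508 on the others, alongside the low immediate-early sum. The part of handling or of recent signalling in these low values was not tested, and in sorted bulk cells fewer cells of a type and less RNA per cell cannot be told apart.

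Between the batches, with genotype in the model, 7 of the 12 probe sets passed limma's moderated F test, in 5 genes, where 41.8% of all tested probe sets did. The phosphatases that passed were Dusp10 on both probe sets (adjusted p = 7.69e-05 for the lead and 1.5e-05 for the second), Dusp5 (0.000244), Dusp4 (0.00313), Dusp16 on both (0.0197 and 0.00525) and the Dusp7 probe set 1460393_a_at (0.0446). Dusp1, Dusp2, Dusp6 and the other Dusp7 probe sets did not pass, with adjusted p from 0.197 to 0.67. The 41.8% belongs to the fit with all arrays, and the share of all tested probe sets with arrays left out is not given here. Without batch 3 the count was 2. Without the wild-type array of batch 1 it was 9: Dusp1, Dusp2 and Dusp6 were gained (adjusted p = 0.0205, 0.00758 and 0.0143) and the Dusp7 probe set was lost (0.118). The Dusp7 call was lost whichever of the 12 arrays was left out, with adjusted p from 0.0514 to 0.207. That of the Dusp16 lead was lost without the Il10 –/– array (0.0933) or the double knockout array of batch 3 (0.0874).

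Dusp10 was lower in batch 3 than in batch 2 on its lead probe set, with a difference of -3.12 ± 0.346 (SE, 4 arrays a batch, limma adjusted p = 6.9e-05). The mean signal of the lead probe set was 3635.6 ± 2002.1 (SD, n = 4) in batch 2, 1267.9 ± 736.1 in batch 1 and 366.0 ± 51.0 in batch 3. Its second probe set differed by -2.30 ± 0.219 in batch 3 against batch 2 and by -2.15 ± 0.219 against batch 1 (limma adjusted p = 2.23e-05 and 1.97e-05), and all 4 arrays of batch 3 were below the other 8, a pattern that 4.52% of tested probe sets showed. Batch 2 exceeded batch 1 on the lead probe set by 1.65 ± 0.346 (limma adjusted p = 0.00342). The second probe set differed there by 0.16 ± 0.219 and did not pass.

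Dusp5 followed the same order, with 6580.1 ± 2671.4 (SD, n = 4) in batch 2, 3387.7 ± 1526.4 in batch 1 and 1280.8 ± 197.3 in batch 3. The differences were -2.28 ± 0.298 for batch 3 against batch 2 (limma adjusted p = 0.000214) and -1.23 ± 0.298 against batch 1 (0.00735). Batch 2 exceeded batch 1 by 1.05 ± 0.298 (limma adjusted p = 0.0183), a call lost without the wild-type array of batch 2 (0.0786) or the Ebi3 –/– array of batch 2 (0.0722). Dusp5 and the Dusp10 lead were the 2 probe sets of the 12 with all arrays of batch 2 above the other 8, which 3.54% of tested probe sets were.

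Dusp4 had another order, with 5726.0 ± 2487.5 (SD, n = 4) in batch 1, 4055.4 ± 254.9 in batch 2 and 1781.9 ± 448.8 in batch 3. It was lower in batch 3 than in batch 1 (-1.56 ± 0.310, limma adjusted p = 0.00215) and than in batch 2 (-1.21 ± 0.310, 0.0136). The second of these calls was lost without the wild-type array of batch 2 (adjusted p = 0.0633) or the double knockout array of batch 3 (0.0669). Without the wild-type array of batch 1 Dusp4 was also lower in batch 2 than in batch 1 (-0.85, limma adjusted p = 0.00141).

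Dusp16 moved in opposite directions on its probe sets. The lead was higher in batch 3 than in batch 1 by 0.95 ± 0.258 (limma adjusted p = 0.0141), and the second was lower (-1.45 ± 0.374, 0.0106). The call on the lead was lost without the Ebi3 –/– array of batch 1 (0.0682), the Il10 –/– array of batch 3 (0.0605) or the double knockout array of batch 3 (0.0603), and that on the second without the Ebi3 –/– array (0.0603) or the double knockout array of batch 1 (0.0521). The second probe set lay below the 40th percentile on all 4 arrays of batch 3 and on the wild-type array of batch 1. No direction for the gene as a whole can be given from the pair.

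Among the pairs of batches, 3 of the 12 probe sets passed for batch 2 against batch 1 (28.1% of all tested), 6 for batch 3 against batch 1 (28.7%) and 5 for batch 3 against batch 2 (21.0%). The median of all tested probe sets was itself shifted, by -0.176, -0.156 and -0.009 in these comparisons, so small differences in the first and second lie near that shift. Dusp7 on 1460393_a_at was higher in batch 1 than in batch 2 (-0.66 ± 0.213 for batch 2 against batch 1, limma adjusted p = 0.0339). This call was lost on leaving out the wild-type array of batch 1 (0.0783), the Ebi3 –/– array of batch 1 (0.145), the Il10 –/– array of batch 1 (0.0521) or any of the 4 arrays of batch 2 (0.0571 to 0.0982). All 4 arrays of batch 1 were above the other 8, as for 9.38% of tested probe sets. The other Dusp7 probe sets did not pass in any pair.

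Dusp1, Dusp2 and Dusp6 passed in no pair of batches with all arrays in. Without the wild-type array of batch 1, batch 3 was lower than batch 2 for Dusp1 (-0.33, limma adjusted p = 0.0166) and Dusp6 (-0.59, 0.0126), and lower than batch 1 for Dusp2 (-0.69, 0.00376) and Dusp6 (-0.51, 0.0373). The shares of all tested probe sets called without that array are not given here.

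**Figure D4:**
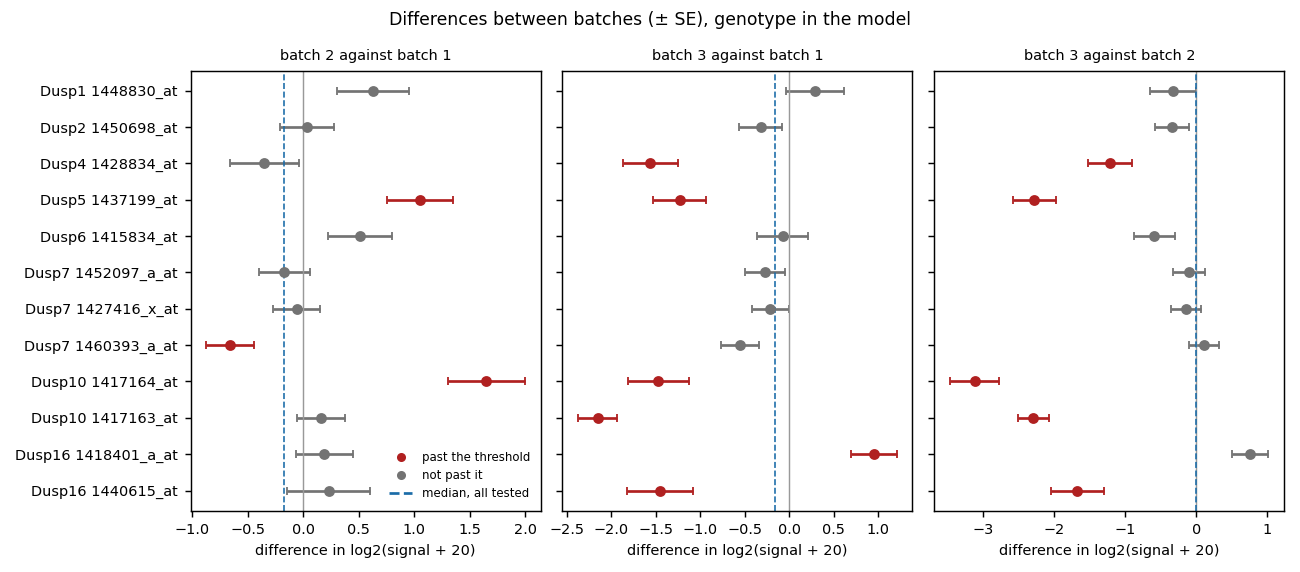
Differences in log2(signal + 20) between batches for the 12 probe sets, ± SE, with genotype in the model and 4 arrays a batch; red points passed the threshold of 0.05 after adjustment over all probe sets, and the dashed line is the median of all tested probe sets. Dusp10, Dusp5 and Dusp4 are lower in batch 3, at -3.12, -2.28 and -1.21 against batch 2, and the Dusp16 probe sets lie on opposite sides of 0.

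Markers of other cells moved with batch 3 as well. For batch 3 against batch 1, 5 of 5 tested myeloid markers and 5 of 6 neutrophil markers rose by limma, with median differences over the lists of 2.56 and 2.09, and 3 of 6 markers of CD8 T and NK cells rose. Lyz2, the lysozyme of macrophages and granulocytes, was higher by 3.47 ± 0.244 (limma adjusted p = 1.67e-06) and Csf1r, the receptor for a macrophage growth factor, by 3.25 ± 0.266 (4.54e-06). Of 7 Treg markers 5 fell, among them Ikzf2, the Treg factor Helios (-0.67 ± 0.119, 0.000961), and Ctla4, an inhibitory receptor (-0.60 ± 0.164, 0.0144). The median Treg marker difference was -0.57, against -1.47 and -2.15 for the Dusp10 probe sets, -1.56 for Dusp4 and -1.23 for Dusp5. Between batches 2 and 1, where the Dusp10 lead and Dusp5 also differed, 4 of 5 B cell markers fell by limma with a median over the list of -1.38, among them Cd79a, a subunit of the B cell receptor (-2.38 ± 0.246, adjusted p = 6.01e-05). Their summed signals were 810 to 1869 in batch 2 and 2137 to 3987 in batch 1. In the same comparison 1 of 6 markers of CD8 T and NK cells fell, 1 of 7 Treg markers rose and 2 fell, and 0 of 5 myeloid and 0 of 6 neutrophil markers passed. The part of the other cell types in the differences between batches was not tested.

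**Figure D5:**
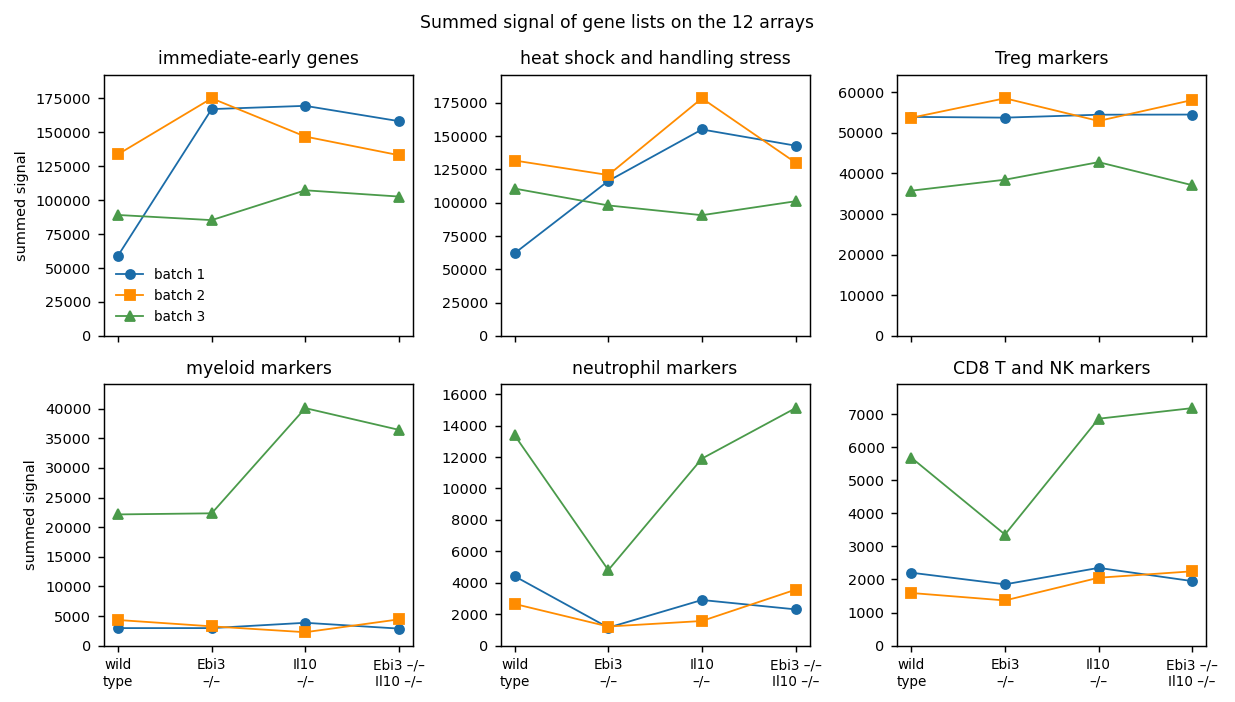
Summed MAS5 signal (axis from 0) of the lead probe sets of 6 gene lists on the 12 arrays; each point is 1 array and lines join the arrays of a batch. The wild-type array of batch 1 is the lowest for the immediate-early and the heat shock and handling stress genes, at 59184 and 62114, and batch 3 is the highest for myeloid, neutrophil and CD8 T and NK markers and the lowest for Treg markers.

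The rest of the pathway was read from lists of named genes. Of 12 other dual specificity phosphatases 9 were tested. Among these, 0 were called by limma in any tested comparison of genotypes, with or without batch in the model. Dusp14, a small phosphatase known to dampen T cell receptor signalling, differed from wild type by 1.15 ± 0.844 in Il10 –/– and 1.08 ± 0.844 in the double knockout (limma adjusted p = 1.0 for both). For batch 3 against batch 1, where 28.7% of all tested probe sets were called, 3 of the 9 rose and 2 fell; those that fell were Dusp8, a JNK and p38 phosphatase (-1.98 ± 0.364, limma adjusted p = 0.00126), and Dusp14 (-1.77 ± 0.375, 0.0032).

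The kinases themselves were also read between genotypes. For the double knockout against wild type, 4 of 8 tested MAP kinases and 5 of 6 MAP2 kinases (the kinases that activate them) were above 0, with medians of 0.03 and 0.25, and 0 were called. Single genes differed by more, as did Map2k4, which activates JNK and p38 (0.71), and Map2k2, which activates ERK (-0.66). Among 14 tested genes upstream of the MAP2 kinases 8 were above 0 with a median of 0.03, and among 14 kinases and factors downstream 9 were, with a median of 0.02. Of 6 other phosphatases that act on MAP kinases 2 were above 0, with a median of -0.13. The lists count only the lead probe set of each gene, while the members are counted by probe set, with several for Dusp7, Dusp10 and Dusp16. Of the 12 dual specificity phosphatase probe sets 10 were above 0 in this comparison, where 51.2% of all tested probe sets were. Their median was 0.37. Without the wild-type array of batch 1, and with batch in the model, it was 0.05 with 7 of 12 above 0.

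Genes induced by MAP kinase signalling were also mostly above wild type with all arrays in. Of 20 immediate-early genes 19 were above 0 both for Il10 –/– and for the double knockout against wild type, with medians of 0.79 and 0.81, against -0.001 and 0.009 over all tested probe sets, and 0 were called. Ebi3 –/–, set against the same wild-type arrays, had 19 of 20 above 0 as well. Heat shock and handling stress genes were above 0 for 10 of 10 in Il10 –/– and 8 of 10 in the double knockout, with medians of 0.61 and 0.41, and their part was not tested. Atf3, a stress-induced transcription factor, differed by 2.63 ± 0.842 in Il10 –/– (limma adjusted p = 1.0). Without the wild-type array of batch 1, and with batch in the model, the immediate-early medians were 0.22 with 14 of 20 above 0 in Il10 –/– and 0.15 with 12 of 20 in the double knockout. For the double knockout against Il10 –/–, which uses no wild-type array, 5 of 20 were above 0 with a median of -0.06. Among 8 other feedback inhibitors of ERK signalling 5 were above 0 in the double knockout against wild type, with a median of 0.33. The largest was Spry1, a Sprouty inhibitor of the path to ERK, at 0.91 ± 0.535 (limma adjusted p = 1.0).

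Between batches some of these genes also changed. For batch 3 against batch 2, where 21.0% of all tested probe sets were called, 8 of 20 immediate-early genes fell and 1 rose, and 3 of 8 feedback inhibitors fell and 1 rose, by limma. Nr4a3, a nuclear receptor induced by T cell receptor signals, differed by -2.20 ± 0.288 (limma adjusted p = 0.000214). Errfi1, an inhibitor of receptor tyrosine kinases of the EGF receptor family, differed by -2.18 ± 0.271 (0.000154), and Spry2 by -1.87 ± 0.303 (0.000852). The Dusp10 lead probe set differed by -3.12 in the same comparison. By limma 5 of 5 myeloid and 5 of 6 neutrophil markers were higher in batch 3 than in batch 2. So were 3 of 5 B cell markers and 4 of 6 CD8 T and NK markers. Of 10 heat shock and handling stress genes 3 fell, and of 7 Treg markers 1 rose and 2 fell. The part of these lists in the differences of Dusp10 and the other genes was not tested.

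The genes whose signal was most like that of the Dusp10 lead probe set over the 12 arrays were Tob1, an antiproliferative factor of resting T cells (Pearson r = 0.979, Spearman rho = 0.916), Tiprl (0.977, 0.937), Rgcc (0.973, 0.930), Errfi1 (0.971, 0.972) and Dyrk2, a protein kinase (0.970, 0.895). After each batch was centred on its own mean, r was between 0.898 and 0.936 for these 5. Those most like Dusp1 were the transcription factor Klf4 (r = 0.983, rho = 0.860), Tnfaip3, an inhibitor of NF-kB (0.974, 0.874), Ppp1r15a, a stress-induced phosphatase subunit (0.969, 0.895), the immediate-early factor Fos (0.968, 0.881) and Rgs2, a regulator of G protein signals (0.968, 0.846). Without the 2 arrays farthest from the Dusp1 median, r for these 5 lay between 0.761 and 0.925, and for the Dusp10 set, treated likewise, between 0.962 and 0.976. These are descriptions over 12 arrays that share batches, and the genes were picked for the size of r.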

How the data were processed

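Each deposited value is a natural log, of the MAS5 signal with 20 added; the authors used MAS5 and Partek 6.4, per the submitters' processing notes. The scale was read from the values: signals below 200 came back as multiples of 0.1 to within 0.00018, and the mean after trimming 2% from each end was 500 on every array. A log2 scale had been assumed in the plan, so the deposited natural log values were converted to log2, with no further normalization. Median signals were 59.3 to 89.1, and the number of arrays limits precision.

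Tests used the 31235 probe sets, for 13899 gene symbols, with 3 or more arrays at or above that array's 40th percentile, and none of the 64 controls. Of the 45101 probe sets, leaving out the 64 controls, 34945 had 1 symbol, 932 several and 9160 none. Only those with 1 were named, from the platform annotation, and chromosomes and promoters came from RefSeq (GRCm38.p6). Genotypes were fitted together in limma 3.58.1 (R 4.3.3; lmFit, eBayes with trend) without a batch term, with Benjamini-Hochberg adjustment and a threshold of 0.05. The test between batches added batch to genotype. The procedure was tested on simulated data.

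The labels give each array a batch equal to its replicate number, so the numbers pair the arrays. After genotype means were removed, arrays of 1 number correlated at 0.325 to 0.664 (18 pairs), others at -0.531 to -0.0204 (36 pairs), and all 12 arrays correlated best with their own number.

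The members, the lists (other dual specificity phosphatases, other MAP kinase phosphatases, MAP kinases, MAP2 kinases, genes upstream and downstream of them, feedback inhibitors, immediate-early genes, heat shock and handling stress, and markers of Tregs, B cells, myeloid cells, neutrophils, CD8 T and NK cells and erythroid cells) and the tests were chosen with earlier results of these data known. Of the erythroid list 2 genes were measured, summing to 19 to 275 over the arrays, and the B cell markers summed to 810 to 7428. Every member probe set was named. From a list, the genes named are among the 2 with the largest difference adjusted for batch. Likeness was ranked by Pearson r over tested probe sets with 1 symbol. Alternatives were no filter, added constants of 1 and 100, quantile normalization, eBayes without trend, batch as a block or random effect, and leaving out arrays and batches. The values under them for pairs of batches, the count of calls lost and gained, and the list counts without the wild-type array of batch 1, were added after the data were seen.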

Additional observations from a re-analysis of the deposited data

How the results depend on the processing

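Ebi3 –/– against wild type was left as a description with no test. In each other comparison of genotypes, 0 member probe sets passed the threshold under all alternatives tried. The count between batches was 2 without batch 3 and ranged from 2 to 9 over all arrays and batches left out, 9 without the wild-type array of batch 1. The shares of all tested probe sets in these fits are not given here. With the replicate block, batch as a term that pairs the arrays, the count stayed at 0 of 12 in each tested comparison of genotypes. The lowest adjusted p among members was then 0.635 for Il10 –/– and 0.11 for the double knockout against wild type, and 1.0 for the double knockout against Il10 –/–, with 2, 2 and 1 probe sets at an unadjusted p under 0.05. Over all tested probe sets the block raised the calls from 2 to 12 in the first and from 3 to 13 in the second, and left 1 in the third. It changed no member's call.

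With quantile normalization the difference between batches 2 and 1 became -0.18 for Dusp2 and 0.14 for the Dusp7 lead, and that between batches 3 and 1 became 0.01 for Dusp6 and 0.01 for the Dusp7 lead. Dusp5 in batch 2 against batch 1 did not pass with quantile normalization (adjusted p = 0.0565) or without the trend (0.0619), nor did Dusp4 in batch 3 against batch 2 without the trend (0.0559). The Dusp7 probe set 1460393_a_at did not pass between batches with no filter (0.0986), an added constant of 1 (0.0535) or quantile normalization (0.516). Dusp16 on its lead in batch 3 against batch 2 passed with an added constant of 100 (0.0451).

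Leaving out single arrays or batches turned the sign of several uncalled means. For Il10 –/– against wild type the ranges were -0.28 to 0.58 for Dusp2, -0.41 to 0.75 for Dusp4, -0.19 to 1.19 for Dusp5, -0.56 to 0.03 for Dusp7, -0.05 to 1.65 and -0.12 to 1.33 for the Dusp10 pair and -0.30 to 0.47 for Dusp16. For the double knockout against wild type they were -0.36 to 0.51 for Dusp2, -0.49 to 0.99 for Dusp4, -0.31 to 1.18 for Dusp5, -0.39 to 0.36 for Dusp7, -0.21 to 1.68 for the Dusp10 lead and -0.06 to 0.62 for Dusp16. For the double knockout against Il10 –/– they were -0.65 to 0.90 and -0.02 to 1.51 for the Dusp10 pair. Between batches 3 and 1 they were -0.28 to 0.50 for Dusp1 and -0.51 to 0.15 for Dusp6, between batches 3 and 2 -0.29 to 0.06 for Dusp7, and between batches 2 and 1 -0.34 to 0.19 for Dusp2, -0.37 to 0.03 for Dusp7 and -0.10 to 0.42 for Dusp16. Leaving 1 array out with no batch term sets unequal batches against each other. For 1417163_at the sign turned in that fit alone: with the replicate block the ranges were 0.41 to 0.65 for Il10 –/– against wild type and 0.61 to 0.86 for the double knockout against Il10 –/–. The Dusp10 lead turned with the block too, with ranges of -0.05 to 0.99 and -0.45 to 0.37. Dim signals limit the second probe sets of Dusp10 and Dusp16, which lay below the 40th percentile on 4 and 5 arrays.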
